A study of Homo sapiens with 6 samples.

Results

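The kinesin genes of UE7T-9, a mesenchymal stem cell line of human marrow, were compared between cells that overexpressed SHC4 and control cells, with the kinesins of mitosis set against the rest of the family. Members were the protein-coding genes named KIF, KIFC, KLC or KIFAP with a number. They came to 44 of the 28181 genes in the tables, of which 12 were taken as mitotic and 32 as other. The other members include the cargo motors kinesin-1, kinesin-2 and kinesin-3, and also genes with no transport role, so they are called other kinesins here. The 12 were taken by name, and some other members, such as KIF2A and KIF4B, may act in mitosis too. KIF19, KIF26A and KIF2B were not analysed here. The line was immortalized with telomerase and the E7 gene of human papillomavirus, and both groups carry these genes. UE7T-9 SHC4 (n = 3) was made with a lentivirus that expresses SHC4 from a CMV promoter with puromycin selection. UE7T-9 Cont (n = 3) is described in the study's methods as carrying GFP in the same vector, whereas the labels name it nontarget and wild type. The labels call the libraries biological replicates and speak of clones, without saying whether the 3 libraries of a group came from separate infections or clones, so a p-value measures only the spread between these libraries.

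Kinesins are motor proteins that burn ATP to walk along microtubules or to take their ends apart. One part of the family builds and moves the mitotic spindle, aligns chromosomes and completes cytokinesis, and its genes are transcribed mainly in dividing cells, late in the cell cycle. The other part carries organelles, vesicles, RNA and ciliary proteins through the cytoplasm and is expressed in dividing and resting cells alike. Kinesin-1 is a pair of heavy chains (KIF5A, KIF5B, KIF5C) with light chains (KLC1 to KLC4) that bind cargo, and kinesin-2 is a heterodimer of KIF3A with KIF3B or KIF3C, joined to cargo by KIFAP3.

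The values were normalized counts, that is, reads per gene divided by 1 size factor per library. The 6 libraries held 18144993 to 27721397 reads in genes, and 3 reads were worth 2.50 to 3.53 normalized counts. SHC4 itself stood at 56.5 to 157 normalized counts in the control libraries and at 119166 to 155006 in the SHC4 libraries. The 7 mesenchymal markers were present in every library, with a summed level of 194169 to 614379 normalized counts that overlapped between the groups. By log2 fold change 6 of the 7 were above 0 (median 0.41), and PDGFRB alone was called by DESeq2 (adjusted p = 0.0171, higher in UE7T-9 SHC4). Without the first control library the median was 1.08 and limma called 2, THY1 and PDGFRB. The part of these markers in the kinesin values was not tested. The 4 measured blood markers summed to 194 to 386, the 3 endothelial markers to 47.2 to 95.7 and the 2 measured epithelial markers to 4.99 to 18.5, again with overlap between the groups. PTPRC, CDH5 and EPCAM did not exceed 6.82, 1.18 and 4.92, and PTPRC was lower in all SHC4 libraries. HLA-DRA read 262, 89.5 and 72.8 in the controls against 151, 189 and 161. Without the first control library limma called it higher (log2 fold change 1.03, adjusted p = 0.0303), and no other marker of these lists. PECAM1 read 7.80, 11.8 and 12.8 against 9.67, 36.6 and 38.4. The first library of each group stood apart from its group. By a chi-square per gene on recovered reads, the first control differed from the first SHC4 library by 30.5 and from the other controls by 85.1 and 131.5, and the first SHC4 library differed from the rest of its group by 74.0 and 62.4. The other controls differed from each other by 25.0 and the other SHC4 libraries by 13.1. Leaving out the first control raised the genes called by limma from 15 to 1191, and leaving out the first library of both groups, an alternative added after the data were seen, gave 1490.

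Of the 12 mitotic kinesins, 11 had a lower mean log2 level in UE7T-9 SHC4 and 1, KIF20A, had a higher one. Their median log2 fold change was −0.34. The other kinesins did not share this direction. Of the 31 that were tested, 17 were lower and 14 higher, with a median of −0.09. Among all 23040 genes tested, 50.3% were lower and the median was −0.00, and among genes with a mean of at least 100 normalized counts 50.6% were lower. No single member passed the main test, limma on log2(normalized count + 1) with Benjamini-Hochberg adjustment over all genes, which called 0.0651% of all genes at an adjusted p below 0.05. At an unadjusted p below 0.05, 4 mitotic and 4 other kinesins were lower, against 6.96% of all genes, and 5 members were higher, all of them other kinesins, against 7.47% of all genes.

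DESeq2, run on the reads recovered from the normalized counts, called 4.14% of the genes it adjusted and 2 of the 38 members with an adjusted p, KIF2C lower and KIFAP3 higher. The quasi-likelihood test of edgeR called no member at an adjusted p below 0.05 and 0.0694% of all genes, and 12 of the 37 members it tested had an unadjusted p below 0.05, against 17.6% of all genes. Without the first control library, limma called 5.17% of all genes and 4 members, KIFAP3 and KIF1C and KIFC2 higher and KIF21A lower. Those 4 are all other kinesins, and no mitotic member was called in that fit. Without the first library of either group, limma called 6.47% of all genes and 5 members, KIF2C (log2 fold change −0.61, adjusted p = 0.0306) and KIF21A lower and KIFAP3, KIF1C and KIF26B higher. In that fit 11 of the 12 mitotic kinesins were again below 0, with a median of −0.39, and 17 of the 31 others, with a median of −0.07.

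The normalized counts of the 12 mitotic kinesins added up to 16764, 12746 and 17152 in the 3 control libraries and to 13535, 11446 and 11850 in the 3 SHC4 libraries. The second control library lay below the first SHC4 library, so the sums overlapped. UE7T-9 Cont averaged 15554 ± 2440 (SD, n = 3), against 12277 ± 1108 (SD, n = 3) for UE7T-9 SHC4. The mitotic genes took 31.5% to 38.6% of all kinesin counts in the control libraries, against 27.7% to 32.9% in the SHC4 libraries. In this culture fewer cells in late cell cycle and less kinesin RNA per cell cannot be told apart.

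**Figure D1:**
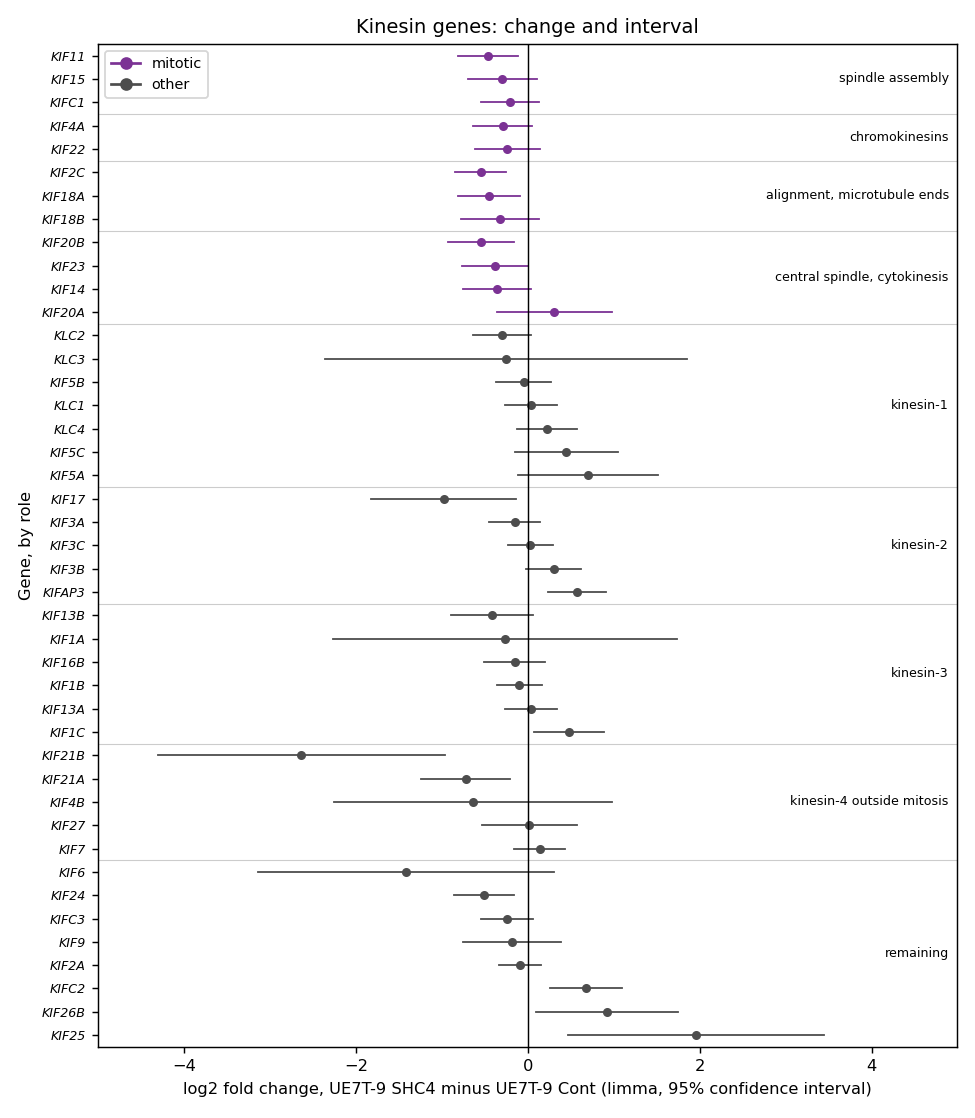
log2 fold change of each of the 43 tested kinesin genes, UE7T-9 SHC4 minus UE7T-9 Cont, with its 95% confidence interval from limma, grouped by role. Of the 12 mitotic genes (purple) 11 lie left of 0 and KIF20A lies right of it, while 17 of the 31 other genes (grey) lie left of 0.

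The members that build the spindle came first. KIF11, the motor that slides the spindle poles apart, read 2364, 1780 and 2454 normalized counts in the controls, against 1776, 1462 and 1505 in the SHC4 libraries. All 3 SHC4 libraries lay below the lowest control, which cleared the highest of them by a few counts only. Its log2 fold change was −0.47 (SE 0.15), with an adjusted p of 0.234 in limma and 0.126 in DESeq2. KIF15, which backs up KIF11, read 817, 520 and 747 against 609, 549 and 512, and KIFC1, the minus-end motor that draws poles together, read 1448, 1040 and 1187 against 1179, 992 and 997. Both had overlapping groups because the second control library was low, and their log2 fold changes were −0.30 and −0.20, with limma adjusted p of 0.487 and 0.572.

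The chromokinesins hold chromosome arms. KIF4A, which pushes arms from the poles and later shortens the central spindle, read 1360, 975 and 1261 normalized counts against 1075, 901 and 941. KIF22, the polar ejection motor, read 1226, 837 and 1030 against 1020, 797 and 794. In both genes 2 of the 3 SHC4 libraries lay under every control and the first SHC4 library did not. The log2 fold changes were −0.29 for KIF4A and −0.24 for KIF22, with limma adjusted p of 0.421 and 0.562.

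KIF2C, the kinesin that depolymerizes microtubules at centromeres to correct wrong attachments, had the smallest limma p of the mitotic group. It read 1536, 1330 and 1524 normalized counts in the controls, against 1136, 924 and 947 in the SHC4 libraries. The control mean was 1463 ± 115 (SD, n = 3) and the SHC4 mean 1002 ± 117 (SD, n = 3), and the groups did not overlap. The log2 fold change was −0.55 (SE 0.13, 95% interval −0.84 to −0.25), with an adjusted p of 0.161 in limma and 0.0264 in DESeq2, so the call depends on the test. An exact two-sided permutation test over 3 against 3 libraries cannot go below 0.1, which is what any gene without overlap reaches. Without the first control library its log2 fold change was −0.51, with a limma adjusted p of 0.0723, and without the first library of either group it passed, as given above. KIF2C (ENSG00000142945) lies on chromosome 1, bases 44739818 to 44767767 of GRCh38 in GENCODE 29, plus strand.

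KIF18A, which caps and dampens microtubule plus ends at the metaphase plate, read 551, 585 and 778 against 446, 433 and 503 normalized counts. Its groups did not overlap, and its log2 fold change was −0.45 (SE 0.16) with a limma adjusted p of 0.258. Its relative KIF18B, which limits astral microtubules together with KIF2C, read 904, 583 and 861 against 757, 577 and 529. Those groups overlapped, and the log2 fold change was −0.32 with a limma adjusted p of 0.496.

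The motors of the central spindle and cytokinesis split. KIF20B, which acts in abscission, read 1803, 1946 and 2634 normalized counts against 1233, 1463 and 1649. All SHC4 libraries lay below all controls, with a log2 fold change of −0.54 (SE 0.17) and adjusted p of 0.219 in limma and 0.104 in DESeq2. KIF23, the motor of the centralspindlin complex, read 2130, 1510 and 2211 against 1710, 1367 and 1374. KIF14, which brings citron kinase to the midbody, read 842, 911 and 1321 against 747, 750 and 859. Each had 2 of 3 SHC4 libraries under every control, and the log2 fold changes were −0.38 and −0.36 with limma adjusted p of 0.352 and 0.398.

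KIF20A, which carries the chromosomal passenger complex and polo-like kinase to the central spindle, was the exception. It read 1784, 729 and 1143 normalized counts in the controls, against 1846, 1230 and 1240 in the SHC4 libraries. The controls spanned more than a factor of 2 and covered the lower SHC4 libraries, and the log2 fold change was 0.31 (95% interval −0.36 to 0.97, limma adjusted p = 0.678). Without the first control library it was 0.63, also uncalled, and without the second it was −0.02, and all 12 mitotic members were then below 0. Exons of KIF20A share 132 bases with BRD8 and 68 with CDC23, both on the opposite strand, and the strand setting of the read counting is not given in the sources used here. Without it, reads of such partners cannot be told apart, which also touches KIF4A with PDZD11 (77 bases), KIF18A with METTL15 (61 bases), KIF23 with its antisense RNA (231 bases) and, by an antisense gene at 2.03 normalized counts, KIF2C.

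**Figure D2:**
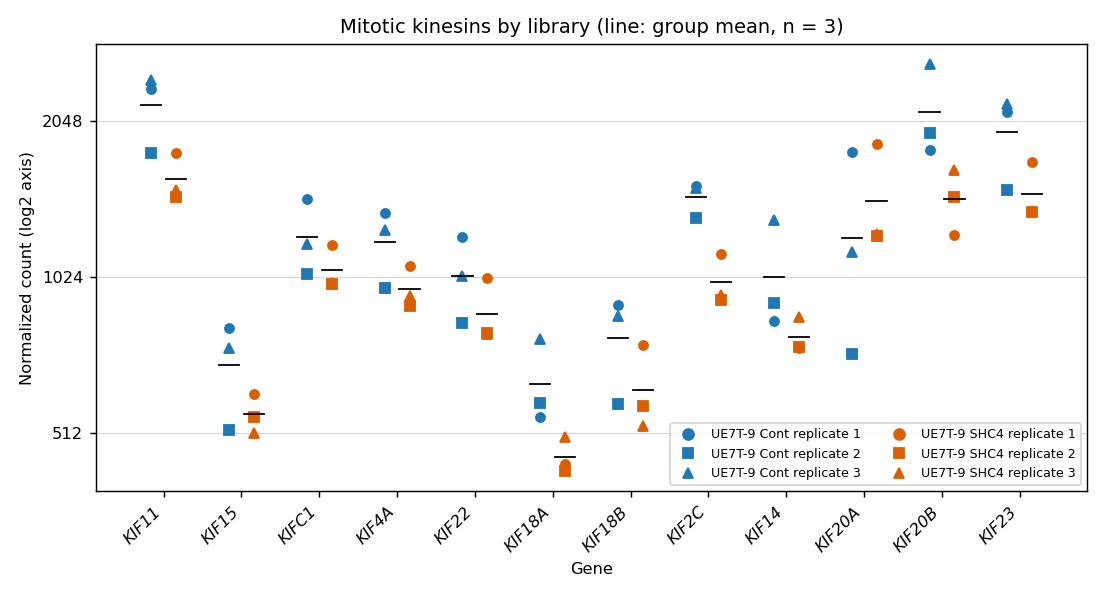
Normalized count (log2 axis) of the 12 mitotic kinesins in each of the 3 UE7T-9 Cont libraries (blue) and 3 UE7T-9 SHC4 libraries (orange), with the marker shape giving the replicate number and the line the group mean. KIF11, KIF18A, KIF2C and KIF20B show no overlap between the groups, and the second control library (blue square) is the lowest control in 9 of the 12 genes.

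The 4 mitotic members without overlap were KIF11, KIF2C, KIF18A and KIF20B, all lower. Over the whole family 10 members were lower without overlap, 4 mitotic and 6 other, and 7 were higher, all other kinesins. Among all genes 10.2% were lower and 9.13% higher without overlap, and among genes with a mean of at least 100 normalized counts 12.4% and 11.1%. Within each group most mitotic genes also ordered the libraries alike. The second control library was the lowest control for 9 of the 12 and never the highest, and the first SHC4 library was the highest SHC4 library for 9 of the 12. The 3 exceptions were the same in both groups, KIF14, KIF18A and KIF20B, for which the third library was the highest of its group and, among the controls, the first was the lowest. These exceptions were chosen after their values were seen.

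Ranked per kilobase of exon over the 6 libraries, the mitotic motors stood below the cargo motors KIF5B, KIF1C and KIF3B, between rank 4 and rank 22. KIF5B was first of the 44 members, at a mean of 870 normalized counts per kilobase for the controls and 838 for UE7T-9 SHC4, followed by KIF1C at 455 and 621 and KIF3B at 358 and 445. KIF11 came next at 453 and 325, with KIFC1 at 366 and 316, KIF2C at 401 and 275 and KIF20A at 308 and 363 after it. The lowest mitotic member on this scale was KIF18A, at 137 and 98.7. The order of KIF1C and KIF11, level with each other in the controls, was clear of overlap in UE7T-9 SHC4. These levels rest on the exon length of all annotated transcripts, and a gene expressed as a short isoform is understated.

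No kinesin-1 gene was called by limma, DESeq2 or edgeR, and KLC3 had an adjusted p from limma only. KIF5B, its ubiquitous heavy chain, read 4387, 5334 and 5625 normalized counts in the controls, against 4667, 4746 and 5364 in the SHC4 libraries. The SHC4 libraries lay inside the control range, and the log2 fold change was −0.05 with a 95% interval of −0.37 to 0.27 (limma adjusted p = 0.906). The neuronal heavy chains were low. KIF5C read 89.7, 94.2 and 53.1 against 116, 101 and 99.0, higher in all 3 SHC4 libraries, with a log2 fold change of 0.45 (limma adjusted p = 0.472). KIF5A read 41.9, 24.7 and 20.7 against 46.6, 57.4 and 36.1, with overlap and a log2 fold change of 0.70 (limma adjusted p = 0.414).

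Of the light chains, which select cargo, KLC1 read 1067, 1037 and 1172 normalized counts against 1184, 1231 and 968. Its libraries interleaved, its log2 fold change was 0.04 (95% interval −0.26 to 0.34), and 29.9% of its exon length is shared with XRCC3 on the opposite strand. KLC2 read 890, 1109 and 1199 against 948, 872 and 764, with 2 SHC4 libraries under every control and a log2 fold change of −0.30 (limma adjusted p = 0.401). KLC4 read 359, 366 and 272 against 380, 394 and 380, higher in all SHC4 libraries by a small margin, with a log2 fold change of 0.22 (limma adjusted p = 0.555). Its exons share 329 bases with CUL7, which averaged 1934 normalized counts, and 373 with MRPL2 at 382, both on the opposite strand. KLC3 did not exceed 6.15 normalized counts in any library, and ERCC2, which overlaps 535 bases of it, averaged 1416.

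Kinesin-2 held the 1 other member that DESeq2 called. KIFAP3, the adaptor that links the KIF3 motors to their cargo, read 931, 810 and 731 normalized counts in the controls, against 1027, 1361 and 1301 in the SHC4 libraries. All 3 SHC4 libraries stood above all controls, with means of 824 ± 101 (SD, n = 3) and 1230 ± 178 (SD, n = 3). The log2 fold change was 0.57 (SE 0.15, 95% interval 0.23 to 0.91), with an adjusted p of 0.181 in limma and 0.0468 in DESeq2, and without the first control library it was 0.67 with a limma adjusted p of 0.043. KIFAP3 (ENSG00000075945) lies on the minus strand of chromosome 1, bases 169921326 to 170085208 of GRCh38.

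The motors that KIFAP3 joins were not called by limma, DESeq2 or edgeR. KIF3B read 2114, 2181 and 2255 normalized counts against 2231, 2864 and 3059, with 2 SHC4 libraries above every control and a log2 fold change of 0.30 (limma adjusted p = 0.372). KIF3A, its partner, read 470, 478 and 564 against 450, 453 and 453, a small difference without overlap, with a log2 fold change of −0.15 (limma adjusted p = 0.637). KIF3C, the alternative partner, read 950, 856 and 831 against 899, 873 and 911, inside the control range, with a log2 fold change of 0.03 (limma adjusted p = 0.94). KIF17, the homodimeric motor of cilia and dendrites, was low and read 34.1, 47.1 and 43.3 against 25.5, 25.8 and 12.8. Its SHC4 libraries all lay below the controls, and the log2 fold change was −0.98 (SE 0.38, limma adjusted p = 0.288).

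Among the kinesin-3 motors, KIF1C, which transports vesicles and integrins, was the most abundant, at 4939, 3772 and 3007 normalized counts in the controls, against 5603, 5241 and 5153 in the SHC4 libraries. The SHC4 libraries were close together and above all controls, and the log2 fold change was 0.48 (SE 0.18, limma adjusted p = 0.282). Without the first control library, the highest control, it was 0.66 with a limma adjusted p of 0.0353. KIF13B, which carries membrane cargo, read 686, 870 and 1046 against 480, 753 and 732, and KIF16B, an endosome motor, read 466, 443 and 453 against 333, 476 and 429. Both overlapped, with log2 fold changes of −0.41 and −0.15 and limma adjusted p of 0.414 and 0.704.

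Of the kinesin-4 and further genes, KIF21A, which stops microtubule growth at the cell cortex, read 461, 748 and 881 normalized counts against 357, 454 and 416. The groups did not overlap, although the first control lay within a few counts of the highest SHC4 library. The log2 fold change was −0.72 (SE 0.23), with adjusted p of 0.217 in limma and 0.0617 in DESeq2, and −0.995 with a limma adjusted p of 0.0122 without that control. KIF24, a centriolar kinesin that restrains cilium formation, read 336, 285 and 375 against 225, 235 and 235, without overlap. Its log2 fold change was −0.51 (SE 0.16, limma adjusted p = 0.207). UBAP1, which averaged 1279 normalized counts, shares 143 exon bases with KIF24 on the opposite strand.

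KIFC2, a minus-end motor best known from neurons, read 743, 578 and 486 normalized counts against 968, 1109 and 797. All SHC4 libraries were above all controls. The log2 fold change was 0.68 (SE 0.18), with adjusted p of 0.187 in limma and 0.0545 in DESeq2, and 0.84 with a limma adjusted p of 0.0261 without the first control library. FOXH1, at 3.30 normalized counts, shares 791 exon bases with KIFC2 on the other strand. KIFC3, a minus-end motor of epithelia, read 1106, 1302 and 1430 against 1172, 1012 and 1048, with overlap and a log2 fold change of −0.24 (limma adjusted p = 0.447). KIF26B, an atypical kinesin linked to cell adhesion and polarity, had the largest log2 fold change of any member with a mean of at least 50 normalized counts, and read 456, 299 and 190 against 337, 806 and 656. Its first SHC4 library lay inside the control range, and the log2 fold change was 0.92 (SE 0.37, limma adjusted p = 0.302).

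**Figure D3:**
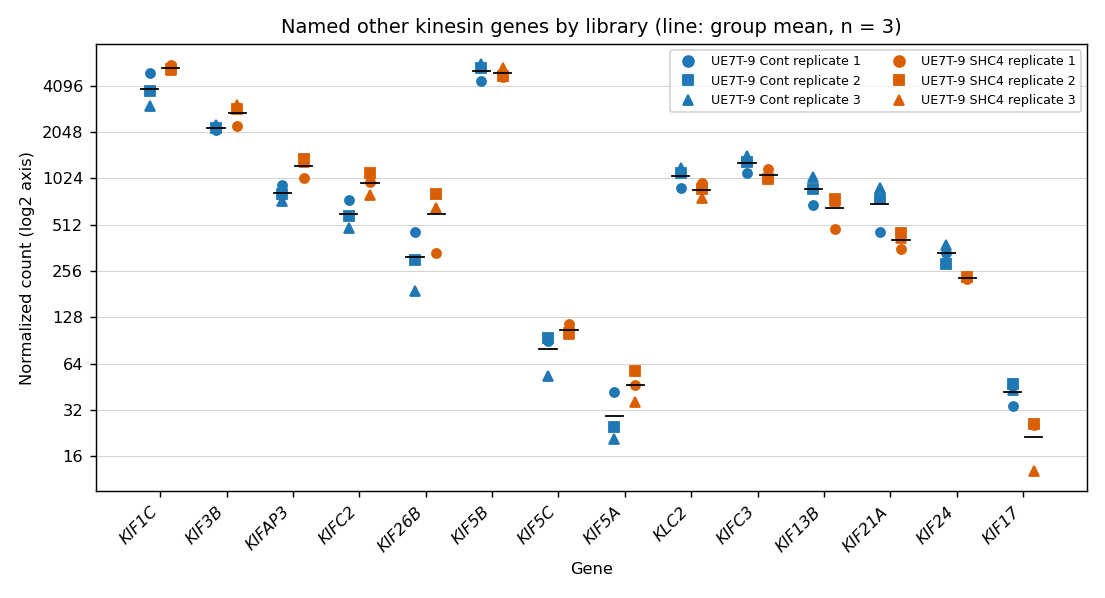
Normalized count (log2 axis) of 14 other kinesin genes in each of the 3 UE7T-9 Cont libraries (blue) and 3 UE7T-9 SHC4 libraries (orange), with the line at the group mean. KIF1C, KIFAP3, KIFC2 and KIF5C show all SHC4 libraries above the controls, KIF21A, KIF24 and KIF17 all below, and KIF5B lies level.

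The remaining members were not called by limma, DESeq2 or edgeR where these gave an adjusted p. KIF1A, KIF21B, KIF4B, KIF25 and KIF12 had no adjusted p from DESeq2 or edgeR, and KIF6 had none from edgeR. KIF13A, KIF1B, KIF7, KIF27 and KIF2A had log2 fold changes between −0.10 and 0.14. KIF9, KIF6, KIF1A, KIF21B, KIF4B and KIF25 had a group mean of at most 52.8 normalized counts. KIF6 read 3.90, 22.4 and 36.4 against 2.64, 6.66 and 6.99, so that the first control lay among the SHC4 libraries, with a log2 fold change of −1.42 (limma adjusted p = 0.433) and of −2.29 without that control (limma adjusted p = 0.0564). KIF21B read 6.82, 3.53 and 17.7 against 1.76, 0 and 0, and KIF25 read 0.975, 0 and 0 against 7.03, 3.33 and 2.33, without overlap in KIF21B or KIF25 but within a few reads of 0 in 1 group. KIF4B is a retrocopy of KIF4A, so its reads may be shared with the parent gene. KIF12 was under the filter of a mean of 1 and did not exceed 1.76 in any library.

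Partners of the mitotic kinesins were counted from lists. For the calls below, DESeq2 called 4.14% of all genes it adjusted, and limma called 0.0651% of all genes. The limma share was 5.17% without the first control library and 6.47% without the first library of either group. Of 37 mitosis partners, kinases and spindle and kinetochore proteins, 34 had a log2 fold change below 0, and the median was −0.25. None passed limma, and DESeq2 called 3 lower and 0 higher: SGO1, which guards centromere cohesion (log2 fold change −0.59, DESeq2 adjusted p = 0.0376), BUB1, a checkpoint kinase (−0.51, DESeq2 adjusted p = 0.0445), and CDK1, the mitotic kinase (−0.50, DESeq2 adjusted p = 0.0332). CENPE, a kinetochore kinesin without a KIF name, read 1834, 1453 and 1988 normalized counts against 1332, 1189 and 1302. Its groups did not overlap, and its log2 fold change was −0.45 with a limma adjusted p of 0.217. Without the first control library 27 of the 37 partners were below 0, with a median of −0.17. In the same fit 11 of the 12 mitotic kinesins were below 0, and their median moved from −0.34 to −0.26. Without the first library of either group 30 of the 37 partners were below 0, with a median of −0.23.

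Of 20 DNA replication genes, 18 were below 0, with a median of −0.23, and without the first control library 11 were, with a median of −0.03. Without the first library of either group 15 were below 0, with a median of −0.15. limma called none of the 20 with all libraries and 3 without the first control library, CDC6, GINS1 and FEN1, all lower. It called 5 without the first library of either group. DESeq2 called 5 lower and 0 higher, and those with the largest changes were CDC6, the loader of the replicative helicase (log2 fold change −0.86, DESeq2 adjusted p = 0.000619), GINS1, a subunit of that helicase (−0.78, DESeq2 adjusted p = 0.00218), and RRM2, which makes deoxynucleotides (−0.69, DESeq2 adjusted p = 0.0288). Of 14 regulators of late cell cycle transcription, 10 were below 0 with a median of −0.15, 8 with a median of −0.05 without the first control library, and none was called by limma, with or without it, or by DESeq2. Without the first library of either group 9 regulators were below 0, with a median of −0.17. Mean log2 levels of the mitotic kinesins were 10.33, 9.92 and 10.36 in the controls and 10.02, 9.80 and 9.84 in the SHC4 libraries. The mitosis partners followed with 10.18, 9.81 and 10.17 against 9.95, 9.72 and 9.77, the second control being low in both lists. For the replication genes the first control alone was high, at 11.30 against 10.93 and 10.87, and the SHC4 libraries stood at 10.90, 10.65 and 10.62. The part of cell cycle stage in the kinesin values was not tested.

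Lists of the transport side and of the microtubule track were counted likewise. Over all genes DESeq2 called 4.14% and limma without the first control library 5.17%. Of 29 dynein and dynactin genes, which form motors that run opposite to most kinesins, 18 were below 0 with a median of −0.04, and none was called by limma or DESeq2. Without the first control library limma called 1, DYNC2H1, which was higher (log2 fold change 0.60, limma adjusted p = 0.0225). With all libraries its log2 fold change was 0.41 and its groups overlapped. Of 23 cargo adaptors and kinesin activators, 10 were below 0 with a median of 0.02. limma called none, or 3 without the first control library, all higher. DESeq2 called 1, TRAK1, which couples kinesin-1 to mitochondria, at 2748, 2557 and 2227 normalized counts against 3391, 3592 and 3648. TRAK1 was higher in all SHC4 libraries, with a log2 fold change of 0.50 and a DESeq2 adjusted p of 0.0243. Of 16 tubulins tested, the track itself, 12 were below 0 with a median of −0.17, and 10 with a median of −0.09 without the first control library. The 1 called by DESeq2, TUBA4A, read 1152, 1149 and 1163 against 755, 662 and 618, with a log2 fold change of −0.77 and adjusted p of 0.0771 in limma and 0.00011 in DESeq2, and of 0.0164 in limma without that control. Without the first library of either group 18 dynein and dynactin genes, 11 adaptors and activators and 11 tubulins were below 0. Their medians were then −0.08, 0.06 and −0.22.

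**Figure D4:**
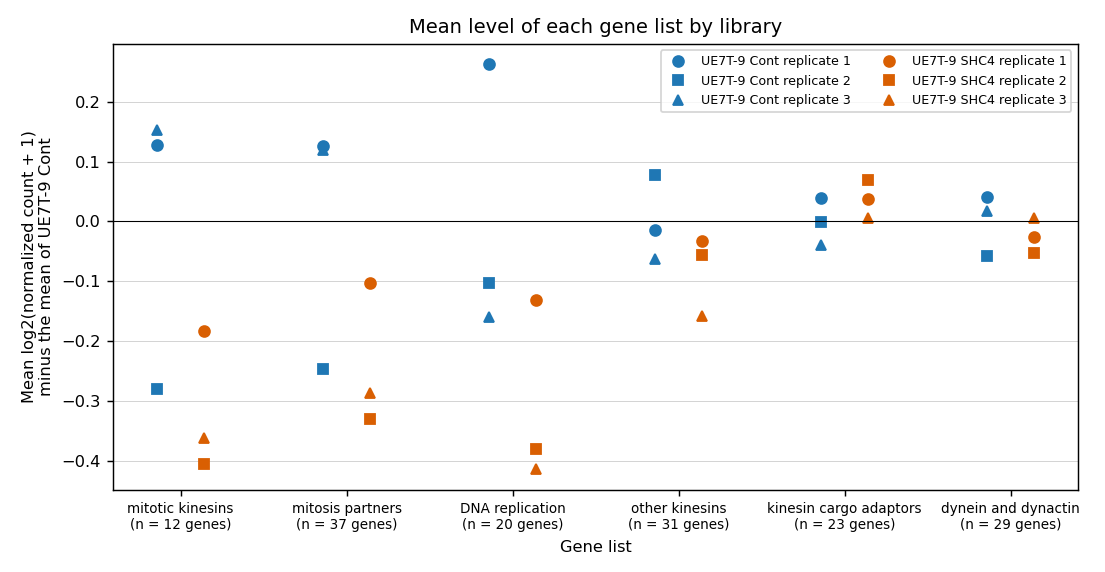
Mean log2(normalized count + 1) of each gene list in each library, minus the mean of the 3 UE7T-9 Cont libraries, with UE7T-9 Cont in blue and UE7T-9 SHC4 in orange. For mitotic kinesins and mitosis partners the second control library sits near the SHC4 libraries, for DNA replication the first control library sits above all others, and the 3 lists on the right stay between −0.16 and 0.08.

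The mitotic kinesins share letters in their promoters that the rule did not use. Genes of late cell cycle often carry a CCAAT box, bound by NF-Y, and a cell cycle homology region, TTTGAA or TTTAAA, bound by the DREAM and MuvB complexes near the start. The RefSeq windows of GRCh38.p14, 250 bases before to 50 after each gene's start, were searched on both strands for the CCAAT letters and for each form of the 6-letter motif. TTTAAA reads the same on both strands, and matches that touch or overlap were all kept. A window was found for all 12 mitotic and 23 of the other members. CCAAT was in 10 of 12 mitotic windows and 8 of 23 others, against 39.7% of 27305 genes. TTTGAA or TTTAAA was in 11 of 12 and 3 of 23, against 27.9% of genes. Both kinds were in 9 of 12 and 2 of 23, against 11.2% of genes, and over the 35116 promoters in the table the shares were 34.6%, 24.0% and 9.27%.

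These promoter stretches show where the letters fall in mitotic kinesins, each the 110 bases just before the start, 5′ to 3′ on the gene's strand. Capitals mark CCAAT (or ATTGG, its other strand) and TTTGAA or TTTAAA (or TTCAAA, the other strand of TTTGAA). KIF11 is at chr10:92593020-92593129 on the plus strand, KIF4A at chrX:70289994-70290103 on the plus strand, KIF18A at chr11:28108157-28108266 on the minus strand, KIF23 at chr15:69414239-69414348 on the plus strand and KIF20A at chr5:138179002-138179111 on the plus strand.
KIF11: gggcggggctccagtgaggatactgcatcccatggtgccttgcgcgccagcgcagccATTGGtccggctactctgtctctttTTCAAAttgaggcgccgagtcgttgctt
KIF4A: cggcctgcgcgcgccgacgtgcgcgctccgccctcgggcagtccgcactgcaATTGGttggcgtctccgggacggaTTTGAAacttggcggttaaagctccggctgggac
KIF18A: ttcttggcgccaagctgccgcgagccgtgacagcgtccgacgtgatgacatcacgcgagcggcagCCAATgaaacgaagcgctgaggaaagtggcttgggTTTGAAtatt
KIF23: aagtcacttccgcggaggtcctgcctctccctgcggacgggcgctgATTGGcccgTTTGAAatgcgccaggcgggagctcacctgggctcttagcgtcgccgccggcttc
KIF20A: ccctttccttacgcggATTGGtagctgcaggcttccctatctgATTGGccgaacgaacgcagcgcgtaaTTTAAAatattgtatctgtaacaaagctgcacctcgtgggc

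In KIF11, KIF4A, KIF18A, KIF23 and KIF20A a 5-letter match lies upstream of a 6-letter match, with 9 to 35 bases between the first letters of the closest. In KIF11 the matches begin 53 and 28 bases before the start, in KIF4A 58 and 34, in KIF18A 45 and 10, and in KIF23 64 and 55. KIF20A, the member whose level was not lower, has the letters too, with CCAAT matches 94 and 67 bases before the start and TTTAAA 41 before it. The form of the 6-letter match differs, TTTGAA in KIF11 and TTTAAA in KIF20A. TTTAAA is also in the windows of KIF2C, KIF14 and KIF23, whose levels were lower, and the last 2 hold TTTGAA as well. The part of these letters in the kinesin values was not tested.

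The remaining stretches are shown because their genes were called in some fit or lack letters, and most other kinesins lack both kinds. KIF15 (chr3:44761684-44761793 on the plus strand) has no CCAAT and a TTTGAA match, KIF2C (chr1:44739727-44739836 on the plus strand) has no CCAAT and a TTTAAA match that begins 3 bases before the start and runs past the stretch shown, and KIFAP3 (chr1:170074696-170074805 on the minus strand) and KIF1C (chr17:4997840-4997949 on the plus strand) have no match.
KIF15: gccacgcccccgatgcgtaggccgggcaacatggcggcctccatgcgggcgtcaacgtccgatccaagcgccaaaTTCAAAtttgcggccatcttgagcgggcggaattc
KIF2C: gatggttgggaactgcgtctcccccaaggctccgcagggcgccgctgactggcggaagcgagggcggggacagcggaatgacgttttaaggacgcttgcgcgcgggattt
KIFAP3: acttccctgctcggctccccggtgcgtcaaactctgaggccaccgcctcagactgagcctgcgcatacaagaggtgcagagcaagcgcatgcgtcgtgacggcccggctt
KIF1C: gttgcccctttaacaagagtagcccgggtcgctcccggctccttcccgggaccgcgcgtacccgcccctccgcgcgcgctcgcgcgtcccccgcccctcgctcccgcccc

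KIF2C, the mitotic member that DESeq2 called, lacks the CCAAT letters in this window, and KIFAP3 and KIF1C, higher in all SHC4 libraries, lack both kinds. KIF22 is the 1 mitotic member with CCAAT and neither 6-letter match. Of the other members, KIF5B and KIF4B have both kinds, and KIF24, lower in all SHC4 libraries, has CCAAT alone. KIF17, KIF3A, KIF21A and KIF2A, also lower in all SHC4 libraries, lack both kinds. KIF5C, higher in all SHC4 libraries, has CCAAT alone, and KIF7 and KIF25, likewise higher, lack both. For KIF21B, KLC4 and KIFC2 no window was found. A match describes letters only, and binding of any factor was not measured in these libraries.

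**Figure D5:**
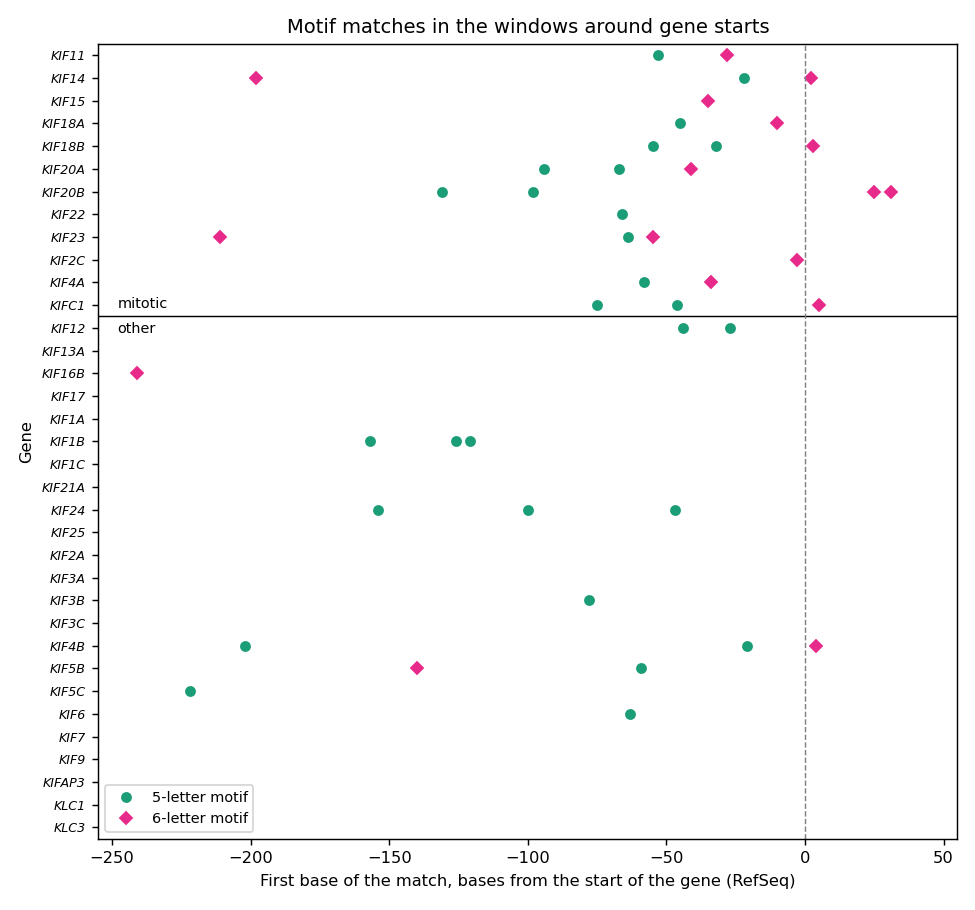
First base of each match to the 5-letter motif (green circles) and to either 6-letter motif (pink diamonds) in bases from the gene start (dashed line), for the 12 mitotic and 23 other kinesin genes with a RefSeq window. Most mitotic genes show both within 100 bases of the start, while most other genes show none.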

How the data were processed

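RNA was sequenced from 6 libraries, 3 a group, and the submitters' processing notes name HISAT2 2.0.5, featureCounts 1.5.0-p3 and DESeq2. The genome build and the strand setting are not given in the sources used here. What the authors deposited is a signal for each gene, namely its normalized count. All values (100%) were whole multiples of 1 read within 0.01, so reads were recovered. limma 3.58.1 (lmFit, eBayes with trend) was run in R 4.3.3 on log2(normalized count + 1) for the 23040 genes whose mean reached 1, and p-values were adjusted by Benjamini-Hochberg over all of them. DESeq2 1.42.0 and edgeR 4.0.16 were run on recovered reads. Other alternatives changed the scaling, filter, pseudocount, block or libraries used. Symbols matched 27968 of 28181 identifiers (99.2%). Positions came from GENCODE 29 by identifier.

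Members and lists were chosen with earlier results of these data known. Values are given for all mitotic members, kinesin-1, kinesin-2, called members, and the 8 largest changes among the rest with a mean of at least 50. From each list, genes called by limma or DESeq2 are named, at most 3 per direction. CENPE, KIF6, KIF21B, KIF25, THY1, FEN1 and DYNC2H1, whose values the rule does not cover, were chosen after they were seen. After subtraction of group means, libraries that share a number correlated at 0.15, 0.013 and −0.0070 over genes, so the numbers were not taken to pair the libraries, although the first library of each group resembled the other. Protein sequences were not analysed here.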

Additional observations from a re-analysis of the deposited data

How the results depend on the processing

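The replicate block cannot change a log2 fold change here, because each number holds a single library of each group. It called 47 genes in place of 15 and no member. The numbers are not known to pair the libraries, since the second control correlated best with the third SHC4 library. For the mitotic kinesins the median, −0.34 in the main fit, was −0.44 under library size scaling and −0.50 to −0.24 over left-out libraries. Of these kinesins, 11 were below 0 under library size scaling and 11 or 12 over left-out libraries. Members called numbered 2 under DESeq2, 5 without the first library of either group (added after the data were seen) and 0 to 4 when single libraries were left out, 4 being without the first control. The median of the other kinesins was 0.028 under edgeR, −0.19 under library size scaling, which moved the median of all genes to −0.10, −0.015 with a mean of at least 10, and −0.10 to 0.00016 over left-out libraries. Under library size scaling 21 of 31 other kinesins were lower.

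Of 634 log2 fold changes under alternatives 603 kept direction and side of the threshold, 20 reversed and 11 passed it. The total includes the replicate block and the changed filters. These leave the log2 fold change of a member as in the main fit, so they could not reverse it and raise the agreement. 34 of 43 members, 11 mitotic, kept their direction in all alternatives run. Library size scaling reversed KLC1 (−0.063), KIF3C (−0.076), KIF13A (−0.065) and KIF27 (−0.083), a pseudocount of 0.1 reversed KIF1A (0.33), and leaving out the first library of both groups reversed KLC1 (−0.014) and KIF16B (0.013). Over left-out libraries the ranges of the members that reversed were −0.016 to 0.63 for KIF20A, −0.16 to 0.023 for KIF5B, −0.027 to 0.15 for KLC1, −1.05 to 0.37 for KLC3, −0.012 to 0.084 for KIF3C, −0.015 to 0.12 for KIF13A, −0.73 to 0.66 for KIF1A and −0.19 to 0.16 for KIF27. The cause was not tested. With 3 libraries a group, an interval such as that of KIF22, −0.62 to 0.15, holds both no change and the mitotic median, and members under about 3 reads are not measurable at this depth.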
